A study of Saccharomyces cerevisiae with 18 samples.

Results

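The last interval of a yeast glucose time-course, from 150 min (labelled 2.5 h) to 300 min (labelled 5 h) after inoculation into fresh medium, was examined on 4 of the 18 arrays of the series. These 4 arrays hold cultures a and b at each of the 2 times, and each culture was compared with itself. Both cultures were wild type, labelled as strain BY4742 with the genotype wt-matA and with the treatment glucose depletion. They came from separate overnight cultures, were depleted of glucose by a day of growth, and were then put into fresh synthetic complete medium with glucose. No 0 min array was used. Each value is a log2 ratio of the RNA of a culture to that of 1 reference pool shared by all arrays, also labelled BY4742, and a change is the ratio at 300 min minus that at 150 min. Culture a had the sample in Cy3 and culture b in Cy5 at both times, so that culture and dye cannot be told apart. Since these are whole cultures, fewer cells of a kind and less RNA per cell cannot be told apart either.

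Biotin is the cofactor of carboxylases such as pyruvate and acetyl-CoA carboxylase. Laboratory yeast makes it only from late precursors, through Bio3, Bio4 and Bio2, and otherwise takes it up through the transporter Vht1. Genes of phospholipid synthesis respond to inositol and choline through the activator Ino2/Ino4, which Opi1 represses. Haploid cells of mating type a transcribe a set of pheromone response genes through Ste12 at a basal level that pheromone raises.

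On the 4 arrays, 98.9 to 99.24% of gene spots exceeded their local background and duplicate spots correlated at 0.977 to 0.990. Both are measured within an array and not between cultures. Between cultures a and b, which also differ in dye, the log2 ratios correlated at 0.612 at 150 min and 0.607 at 300 min. The comparison rests on few arrays. The mating type of the label was borne out by its marker genes. The 7 genes specific to a cells had log2 ratios from 1.68 to 5.13 on the 4 arrays, and the 4 genes specific to alpha cells from -6.17 to -3.14. These mating type markers go against the strain label, since the paper's methods name BY4742 as MATalpha and BY4741 as MATa. The strain markers go against the label BY4742 too, a strain in which LYS2 is deleted and MET17 is intact. LYS2 had log2 ratios of 3.69 and 4.14 at 150 min in cultures a and b, and of 3.74 and 3.44 at 300 min. MET17 had -5.23 and -4.99 at 150 min, and -5.25 and -4.89 at 300 min. The strain is therefore called the strain labelled BY4742. Both genes kept their direction on all 4 arrays, and neither passed a test of the change (adjusted p = 0.467 and 0.912 in limma).

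Of 5269 genes tested, 20 were higher (0.38%) and 7 lower (0.133%) at 300 min than at 150 min, at a Benjamini-Hochberg adjusted p under 0.01 in limma and a fold change over 1.7. The genes with the largest rises were those of biotin synthesis and uptake, 2 neighbouring genes of uncertain function, ALD6 and OPI3. HPF1, which encodes a cell wall mannoprotein, fell most. A second rule, an adjusted p under 0.05 at any fold, took in 371 genes higher (7.04%) and 200 lower (3.8%), and is used below for members of gene lists. Every count of list members is to be read against these shares. With the arrays shifted to external control spots, 156 genes were higher and 49 lower by this second rule. All 27 genes called by the first rule changed in the same direction in both cultures, as did 70.37% of all genes. Across all genes the changes in the cultures correlated at r = 0.763 (Spearman's rho = 0.594), with an SD of the change of 0.207 and a median of -0.0014. Genes are not independent replicates.

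**Figure D1:**
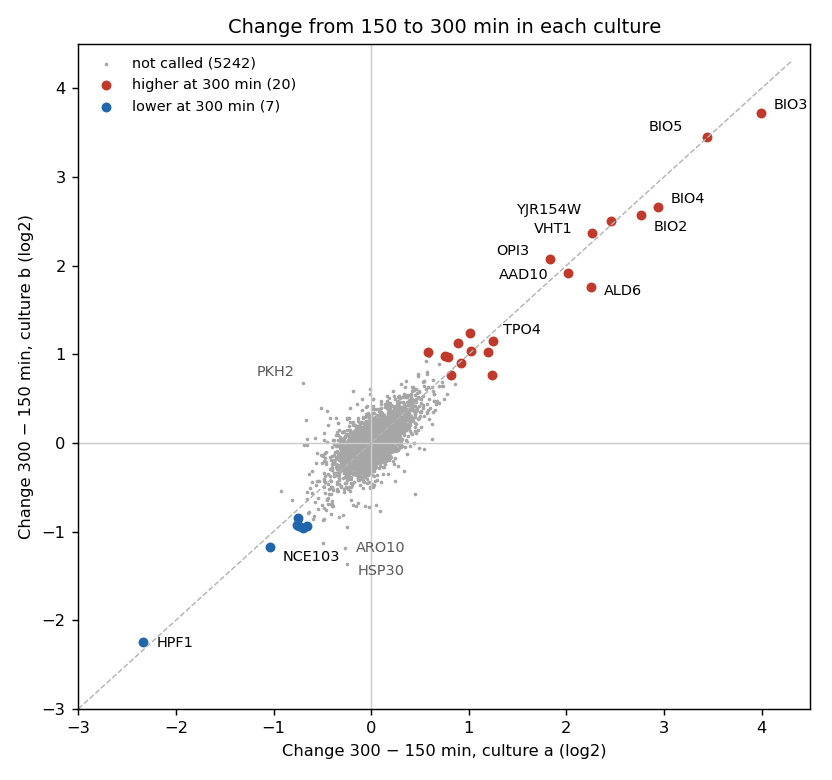
Change of each gene from 150 to 300 min (log2) in culture a (x axis) against culture b (y axis), with 1 point per gene and the dashed line marking equal change. Both cultures agreed in direction for the 20 genes called higher (red) and the 7 called lower (blue), as for 70.37% of all genes. The call itself favours genes whose cultures agree. Called genes ranged from BIO3 at 4.0 and 3.73 to HPF1 at -2.34 and -2.25. Some lay off the line, such as ALD6 (2.25 and 1.76) and FAR1 (0.58 and 1.02). HSP30 and ARO10, which were not called, changed mainly in culture b.

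The biotin genes led the comparison. BIO3, which encodes the aminotransferase that makes diaminopelargonate, had log2 ratios of -3.47 and -3.19 at 150 min in cultures a and b, and of 0.53 and 0.53 at 300 min. This was a rise of 3.86 (SE 0.13), or 14.5-fold, with an adjusted p of 2.75e-08 in limma. BIO4, the dethiobiotin synthetase gene, went from -2.51 and -2.11 to 0.43 and 0.56, a rise of 2.80 (SE 0.086). Both arrays of 300 min lay above the reference for these genes and both arrays of 150 min far below it. BIO2, which encodes biotin synthase, the last enzyme of the route, went from -2.43 and -2.17 to 0.34 and 0.41, a 6.36-fold rise. BIO5, the gene of the transporter of a biotin precursor, went from -2.85 and -2.65 to 0.59 and 0.80, a 10.9-fold rise (log2 3.44, SE 0.086). VHT1, the gene of the biotin transporter, went from -2.22 and -2.05 to 0.04 and 0.31, a rise of 2.31 (SE 0.15). The 3 neighbours BIO3, BIO4 and BIO5 stand side by side on chromosome XIV in the RefSeq R64 annotation, with BIO4 in the middle, and BIO2 and VHT1 lie apart from them.

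The other genes around biotin moved less. VHR1, which encodes an activator of VHT1 and BIO5, had log2 ratios of -0.25 and 0.25 at 150 min and 0.21 and 0.61 at 300 min, so that the times overlapped between the cultures while each culture rose (0.41, SE 0.11, adjusted p = 0.0383). BPL1, the gene of the ligase that attaches biotin to the carboxylases, rose by 0.50 (SE 0.071) from -0.14 and -0.47 to 0.35 and 0.04. PYC1, a pyruvate carboxylase gene, fell from 1.48 and 1.25 to 0.99 and 1.04 (-0.35, SE 0.088). Of 6 genes of biotin-dependent enzymes and the ligase measured, BPL1 was higher and PYC1 lower at an adjusted p under 0.05, and the other 4 did not pass that test. This list and the biotin list were drawn up after the values were seen.

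YJR154W and AAD10 are next to each other on chromosome X in the same annotation and changed by similar amounts. YJR154W, a gene of unknown function, had log2 ratios of -1.85 and -1.73 at 150 min and of 0.61 and 0.77 at 300 min, a 5.57-fold rise (log2 2.48, SE 0.087). AAD10, a putative aryl-alcohol dehydrogenase gene, went from -1.26 and -1.07 to 0.75 and 0.84, a 3.90-fold rise (log2 1.96, SE 0.059). Among the 6 measured genes of this family, whose sequences are close enough that probes may share signal, AAD6 also rose (0.47, SE 0.057), and the other 4 did not pass the test at an adjusted p under 0.05. ALD6 encodes the cytosolic aldehyde dehydrogenase that forms acetate. It had log2 ratios of -2.44 and -1.49 at 150 min and of -0.19 and 0.27 at 300 min, so that its cultures differed by close to 1 log2 unit at 150 min. Its rise was 2.25 in culture a and 1.76 in culture b (2.0 in the fit, SE 0.14, adjusted p = 2.89e-05).

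Before 150 min the biotin genes had declined. BIO3 had a mean log2 ratio of 2.49 at 3 min and was down to 0.72 by 30 min, to -1.11 by 60 min and to -2.46 by 110 min. It reached -3.33 at 150 min, before 0.53 at 300 min. BIO5, BIO2, VHT1, YJR154W and AAD10 also stood above the reference from 3 to 30 min and were lowest at 150 min. BIO4 was near the reference at 3 min, with a mean of -0.08, and rose to 0.46 by 30 min before it declined. It was lowest at 150 min too. Of the 20 genes called higher at 300 min, 13 had their lowest mean of the 8 times at 150 min and 7 at 60 min. All 20 had a lower mean at 150 min than at 110 min, and all 7 genes called lower had a higher one. The arrays of 150 min enter both differences, so this is a description and not separate evidence. Among all genes, 72.39% changed in opposite directions from 110 to 150 min and from 150 to 300 min. At 300 min, 25 of the 27 genes called were nearer the reference than at 150 min, as were 68.57% of all genes.

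**Figure D2:**
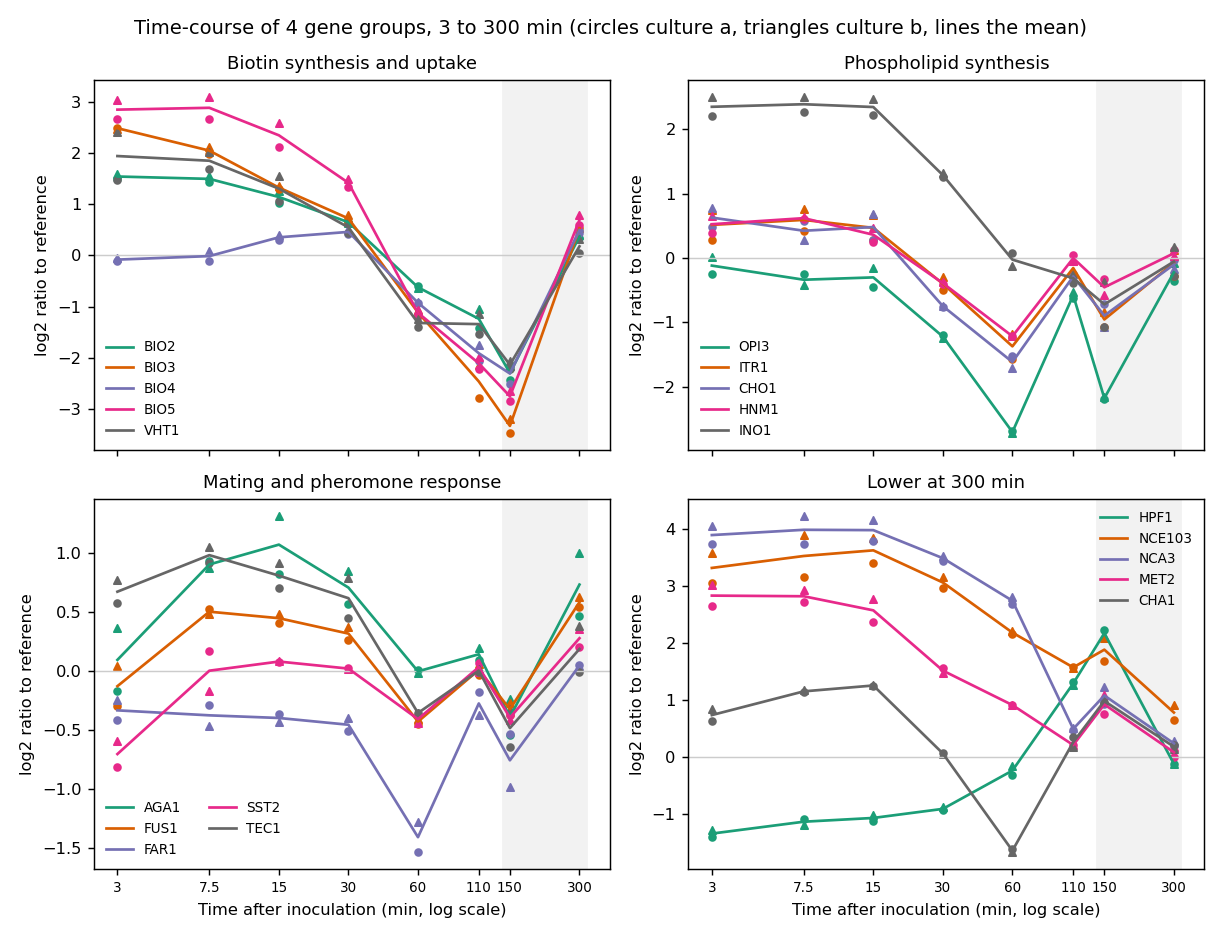
Log2 ratio to the reference pool (y axis) against time after inoculation in min (x axis, log scale) for 20 genes in 4 groups, with circles for culture a, triangles for culture b, lines for their mean and the interval from 150 to 300 min shaded. The biotin genes declined to their lowest values at 150 min and were above the reference at 300 min, OPI3 was low at 60 and at 150 min, and HPF1 was high at 150 min (2.23 and 2.12) and near 0 at 300 min.

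Many genes of phospholipid synthesis were higher at 300 min. Of 15 measured members, 9 were higher and 0 lower at an adjusted p under 0.05, 2 had a change below 0, and the median change was 0.40 against -0.0014 over all genes. OPI3, which encodes the methyltransferase of the later steps to phosphatidylcholine, had log2 ratios of -2.20 and -2.16 at 150 min and of -0.36 and -0.09 at 300 min. Its rise of 1.96 (SE 0.11) was 3.88-fold. ITR1, the gene of the main inositol transporter, went from -1.07 and -0.84 to -0.28 and 0.13 (0.88, SE 0.070). OPI3 and ITR1 were the members past the first rule. CHO1, the phosphatidylserine synthase gene, rose by 0.79 (SE 0.16) from -0.72 and -1.07 to -0.03 and -0.18, with an adjusted p of 0.0128. INO1, which encodes inositol phosphate synthase, differed between the cultures at 150 min, with -1.07 and -0.38, and stood at -0.29 and 0.17 at 300 min (0.66, SE 0.16). The choline transporter gene HNM1 and the choline kinase gene CKI1 each rose by 0.53 (SE 0.10 and 0.073), PSD1 by 0.41 (SE 0.073), and the activator genes INO4 and INO2 by 0.40 (SE 0.086) and 0.23 (SE 0.046). YEL073C, a gene known to respond to inositol and choline, went from -1.02 and -1.14 to -0.26 and -0.17 (0.87, SE 0.070). OPI3 had been low once before, with a mean of -2.71 at 60 min and -0.58 at 110 min, as had ITR1 with -1.37 and -0.16. Without the 300 min array of culture b, without both arrays of culture b, and without culture as a term, 4 of the 15 members were higher at an adjusted p under 0.05, and without either the 150 min array of culture b or the 300 min array of culture a, 6 were. The median was 0.23 without culture b.

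Part of the mating pathway genes were higher at 300 min. Of 22 measured haploid and pheromone genes, 11 were higher and 0 lower at an adjusted p under 0.05, 3 had a change below 0, and the median change was 0.27. AGA1, which encodes the anchor subunit of the a-agglutinin, had log2 ratios of -0.55 and -0.24 at 150 min and of 0.47 and 0.99 at 300 min, a rise of 1.12 (SE 0.15). FUS1, a gene of cell fusion, went from -0.38 and -0.27 to 0.54 and 0.62 (0.91, SE 0.073). FAR1, which encodes the inhibitor that arrests the cell cycle in response to pheromone, went from -0.54 and -0.98 to 0.05 and 0.04 (0.80, SE 0.14). For each of the 3 genes both arrays of 300 min exceeded both of 150 min, and the arrays of the 2 times were likewise apart in 28.39% of all genes. SST2, the gene of the regulator that desensitises the pathway, rose by 0.67 (SE 0.11), GPA1, which encodes the G-protein alpha subunit, by 0.51 (SE 0.092), the kinase gene FUS3 by 0.44 (SE 0.062), and the transcription factor gene STE12 by 0.25 (SE 0.068). TEC1, which is no member of the list and encodes the partner of Ste12 in filamentous growth, rose by 0.67 (SE 0.093). Among the 7 a-cell genes, 3 were higher at an adjusted p under 0.05. ASG7 went from 1.77 and 1.68 to 2.63 and 2.34, AGA2 from 3.04 and 3.17 to 3.76 and 3.86, and BAR1, the gene of the protease that degrades alpha factor, from 3.10 and 3.45 to 3.73 and 4.03. Without either culture 0 of these 7 genes passed an adjusted p of 0.05, while 10 of the 22 haploid and pheromone genes did without culture a and 8 without culture b. Without culture as a term 6 of the 22 did.

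Genes with a peak between mitosis and G1 were higher at 300 min in 12 of 20 cases. All 20 measured genes of the list for this phase and for separation of daughter cells had a change above 0, 12 passed an adjusted p under 0.05 and 8 did not, and the median change was 0.37. SCW11, a cell wall glucanase gene of daughter cells, had log2 ratios of -0.53 and -0.28 at 150 min and of 0.03 and 0.52 at 300 min (0.68, SE 0.072). DSE4, another daughter-specific glucanase gene, went from -0.62 and -1.04 to -0.09 and -0.35 (0.61, SE 0.076). ASH1, the repressor of mating type switching in daughters, had -0.35 and -1.05 at 150 min and 0.13 and -0.27 at 300 min (0.63, SE 0.099). SIC1, the inhibitor of the S phase kinase, rose by 0.37 (SE 0.081), and CDC6, which licenses replication origins, by 0.42 (SE 0.066). CTS1, the chitinase gene of cell separation, missed the test at an adjusted p of 0.0510, with a change of 0.36 (SE 0.10). In the mitotic Clb2 cluster 4 of 18 genes, CLB1 (0.55, SE 0.061) among them, were higher (22.22%, against 7.04% of all genes) and 0 lower. The median of 0.088 turned to -0.0069 without the 150 min array of culture b.

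Of 31 measured genes of G1 and S phase, 6 were lower and 1 higher at an adjusted p under 0.05, 25 had a change below 0 and 6 above, and the median change was -0.15. The polymerase genes POL1 and POL2 fell by 0.39 (SE 0.080) and 0.37 (SE 0.083), and RNR1, the ribonucleotide reductase gene, by 0.34 (SE 0.095). RNR3, which encodes the minor reductase subunit induced by DNA damage, rose by 0.19 (SE 0.043). Of 10 histone genes, HTA1 and HHF1 fell, by 0.50 (SE 0.098) and 0.35 (SE 0.067), and the median was -0.21. Without the 300 min array of culture a, without that of culture b, or without both arrays of culture b, 0 of the 31 genes was lower at an adjusted p under 0.05, as without culture as a term and after a shift of the arrays to the external control spots, where the median was -0.12. HTA1 was among the brightest spots, with a mean above 32768 in 1 channel of all 4 arrays. The histone median was -0.052 and -0.072 without the 150 min array of culture a and the 300 min array of culture b, -0.38 and -0.36 without the others, and -0.077 over the 5 histone genes with no such bright spot, of which 1 was lower. Without either culture, or without culture as a term, 0 of the 10 was lower.

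**Figure D3:**
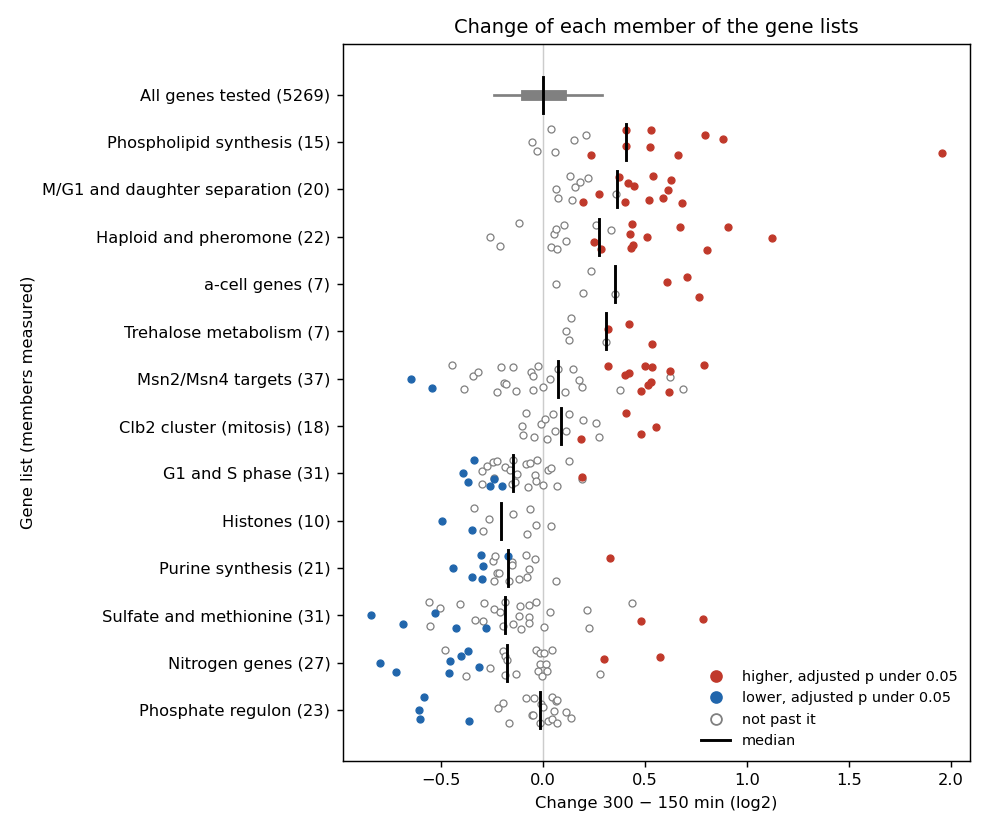
Change from 150 to 300 min (log2, x axis) of each measured member of 13 gene lists, with the number measured in parentheses, and below the title the range of all genes tested (thin line from the 5th to the 95th percentile, thick line the middle 50%). Filled points passed an adjusted p under 0.05, red for higher and blue for lower, and black bars are medians, from 0.40 for phospholipid synthesis to -0.21 for histones, which was -0.052 to -0.38 without 1 array.

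Stress and storage genes moved in part. Of 37 measured targets of the stress factors Msn2 and Msn4, 11 were higher and 2 lower at an adjusted p under 0.05. The median was 0.076, with 21 changes above 0 and 16 below. DDR48, a stress gene, had log2 ratios of -0.95 and -0.70 at 150 min and of -0.14 and 0.07 at 300 min (0.79, SE 0.13, adjusted p = 0.0049). TPS2, the trehalose phosphatase gene, rose by 0.53 (SE 0.072), TSL1 and TPS1 of the same enzyme complex by 0.42 (SE 0.10) and 0.32 (SE 0.074), and the glycogen synthase gene GSY2 by 0.62 (SE 0.069). All 7 genes of trehalose metabolism had a change above 0, and 3 passed the test. The glycogen list of 17 genes had 4 higher and 0 lower, with 9 changes above 0, 8 below and a median of 0.027. Without the 300 min array of culture b 6 of the 37 stress targets were higher and 1 of the 7 trehalose genes, without culture as a term 3 and 1, and without culture b 7 and 1. Without culture a 7 of the 37 were higher and 5 lower, and 5 were also lower without its 150 min array. HSP42 and SSA4, which encode chaperones, fell by 0.65 (SE 0.097) and 0.55 (SE 0.081). The heat shock chaperone list of 25 genes, which holds both, had 0 higher and 18 with a change below 0. Its median was -0.12. The study also listed transcripts lower in deletion mutants of the genes it calls the low glucose group, which promote processes of low glucose, and 441 of them were measured here. Of these, 119 (26.98%) were higher at an adjusted p under 0.05 against 7.04% of all genes, 13 were lower, and the median change was 0.11. The count of higher genes was 47 to 87 without 1 array (48 without the 300 min array of culture a and 47 without that of culture b), 52 and 59 without culture a and culture b, 53 after the shift to external control spots and 23 without culture as a term. Of the 324 measured transcripts higher in the same mutants, 5 were higher (1.543%) and 9 lower (2.778%). Both shares were below those of all genes, 7.04% and 3.8%. Of these 324 transcripts, 237 had a change below 0 and 87 above. Their median was -0.055, and -0.030 after the shift to external control spots. Of 125 genes of cytosolic ribosomal proteins, many of them near-identical pairs and among the brightest spots, 1 was lower and the median was -0.094. That median was 0.19 without the 150 min array of culture a and -0.40 without that of culture b.

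The other genes called higher had various functions. TPO4, a polyamine exporter gene, had log2 ratios of -1.98 and -1.72 at 150 min and of -0.73 and -0.58 at 300 min (1.2, SE 0.093). SED1, which encodes an abundant cell wall protein, went from -1.56 and -1.13 to -0.33 and -0.37 (1.0, SE 0.16), and was among the brightest spots, with a mean above 32768 on a scale up to 65535 in 1 channel of 3 of the 4 arrays. WSC4, related to sensors of cell wall stress, went from -1.65 and -1.77 to -0.76 and -0.64 (1.01, SE 0.089). Of 34 measured cell wall genes, 7 were higher (20.59%) and 1 lower (2.941%), against 7.04% and 3.8% of all genes. Their median change was 0.012, with 18 changes above 0 and 16 below. RPI1, a putative transcriptional regulator, differed between the cultures by a like amount at both times, with -1.06 and -1.77 at 150 min and -0.03 and -0.74 at 300 min (1.03, SE 0.13). YNL134C, an aldehyde reductase gene, went from -1.62 and -1.67 to -0.43 and -0.64 (1.11, SE 0.12).

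Falls were fewer. HPF1 had log2 ratios of 2.23 and 2.12 at 150 min and of -0.11 and -0.12 at 300 min, a 4.91-fold fall (log2 -2.29, SE 0.072, adjusted p = 1.61e-08 in limma). It had risen from a mean of -1.34 at 3 min to 1.29 at 110 min. At 110 and 150 min HPF1 was above the reference, while BIO2, BIO3, BIO4, BIO5 and VHT1 were below it. At 60 min all of them were below it, HPF1 with a mean of -0.23. NCE103, the carbonic anhydrase gene, went from 1.68 and 2.09 to 0.65 and 0.92 (-1.10, SE 0.15). NCA3, a gene tied to the mitochondrial ATP synthase, went from 0.94 and 1.23 to 0.20 and 0.28 (-0.84, SE 0.10). Both were highest between 7.5 and 15 min. VID24, the substrate receptor of the GID ligase that removes gluconeogenic enzymes, went from 1.32 and 1.74 to 0.66 and 0.80 (-0.80, SE 0.11). The other GID ligase genes did not fall with it. Of 8 measured, 3 were higher (37.5%, against 7.04% of all genes) at an adjusted p under 0.05 in limma. VID24 was the only 1 lower and the only 1 with a change below 0. YAT1, a carnitine acetyltransferase gene, went from 0.84 and 1.40 to 0.15 and 0.44 (-0.83, SE 0.14). It was the only 1 lower of 19 genes listed under peroxisomal beta-oxidation, of which 4 were higher (21.05%) by the same test. In that list 11 changes were above 0 and 8 below. CHA1, the gene of the serine and threonine deaminase, went from 0.97 and 1.0 to 0.22 and 0.15 (-0.80, SE 0.072), with the cultures close at both times.

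**Figure D4:**
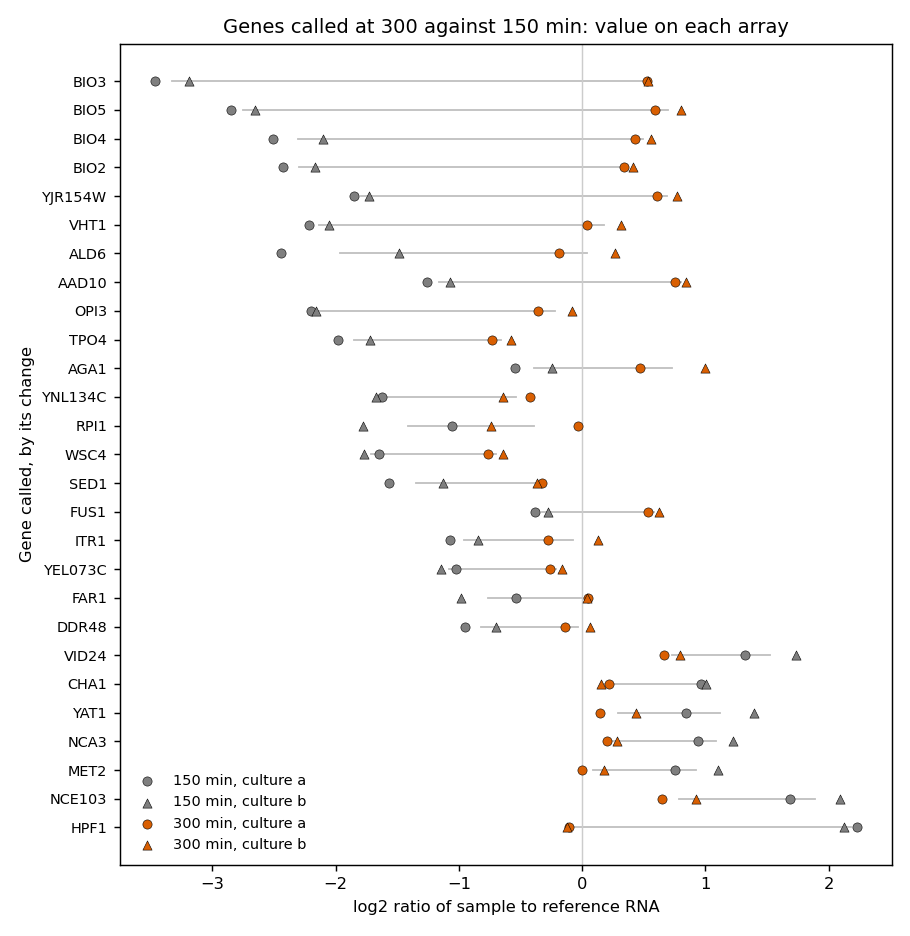
Log2 ratio of sample to reference RNA (x axis) of the 27 genes called (y axis, ordered by their change), with circles for culture a, triangles for culture b, grey for 150 min, orange for 300 min and a line joining the means. The arrays of the 2 times did not overlap for any of these genes, nor for 28.39% of all genes, from BIO3 (-3.47 and -3.19 against 0.53 and 0.53) to HPF1 (2.23 and 2.12 against -0.11 and -0.12).

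MET2, the gene of homoserine acetyltransferase in methionine synthesis, went from 0.76 and 1.10 to 0.00 and 0.18 (-0.84, SE 0.11). Of 31 genes of sulfate assimilation and methionine, 5 were lower, MET3 among them (-0.68, SE 0.18), and 2 higher, SAM2 (0.78, SE 0.20) and MET13. Of 27 genes of nitrogen use, 7 were lower, among them CHA1 and GDH3 (-0.72, SE 0.10), and 2 higher, with a median of -0.18. Of 21 purine genes, 6 were lower and 1 higher, with a median of -0.17. The isozyme genes ADE17 and ADE16 moved in opposite directions, by -0.44 (SE 0.093) and 0.33 (SE 0.066). In the phosphate regulon 4 of 23 genes were lower, among them SPL2 (-0.60, SE 0.073) and the transporter gene PHO84 (-0.58, SE 0.15), and the median was -0.013. At any fold, 57 genes were lower at an adjusted p under 0.01 in limma, the 7 called falls included. Those named here for a small p, below the fold threshold, were the sterol desaturase gene ERG3 (-0.73, SE 0.069) and the riboflavin transporter gene MCH5 (-0.71, SE 0.064). MHT1, IRC18, YJL218W, ALG14 and GUP2 were named likewise, with changes from -0.58 to -0.35. The shares lower were 16.13% of sulfate, 25.93% of nitrogen, 28.57% of purine and 17.39% of phosphate genes, against 3.8% of all genes. These list counts rested on few arrays. Without the 300 min array of culture a, 0 purine, 3 nitrogen, 3 sulfate and 1 phosphate genes were lower at an adjusted p under 0.05, and without that of culture b 2, 4, 2 and 2. Without the 150 min array of culture b 3, 5, 2 and 1 were, and without both arrays of culture b 3, 3, 1 and 1. Without both of culture a 3, 3, 4 and 3 were, without culture as a term 1, 3, 1 and 2, and after the shift to external control spots 1, 2, 6 and 3.

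Each of 5 lists of growth genes was without a call. None of 61 large ribosomal subunit assembly genes, 35 translation factor genes or 19 tRNA synthetase genes passed an adjusted p of 0.05 in limma. Nor did any of 77 genes of the mitochondrial ribosome and import or 10 ER chaperone genes. Small ribosomal subunit assembly had 2 of 51 genes lower, and the RNA polymerase I and III list had 1 of 32 lower. Some lists without a call shifted slightly to 1 side. Changes were below 0 for 49 of the 61 large subunit genes (median -0.053) and 17 of the 19 tRNA synthetase genes (median -0.051). They were above 0 for 62 of the 77 mitochondrial ribosome and import genes (median 0.046). Translation factor genes were split, 17 above and 18 below. Of 17 glycolytic genes 2 were higher, of 18 genes of the TCA cycle 1 was higher and 3 were lower, and of 40 genes of the respiratory chain 2 were higher and 2 lower. Of 13 hexose transporter genes 1 was lower, HXT5 (-0.67, SE 0.15), whose product carries glucose in slowly growing cells. Autophagy genes had 5 of 17 higher and 0 lower, and genes of the Ras and protein kinase A pathway 5 of 18 higher and 0 lower. The median change of the Ras and protein kinase A list was 0.13 in culture a and -0.0029 in culture b. Of 12 genes of NAD synthesis 4 were lower and 0 higher. These shares are to be read against the 7.04% of genes higher and 3.8% lower among all genes.

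Some genes differed between the cultures. HSP30, a plasma membrane heat shock gene, had log2 ratios of -0.22 and 1.34 at 150 min and of -0.47 and -0.03 at 300 min, which are changes of -0.25 in culture a and -1.37 in culture b. ARO10, a decarboxylase gene of amino acid breakdown, had 0.27 and 1.58 at 150 min and 0.00 and 0.39 at 300 min. SPG4 and CRC1, a stationary phase gene and the carnitine transporter gene, were also higher in culture b at 150 min, with 0.40 and 1.59, and with 0.26 and 1.17. None of these 4 genes passed an adjusted p of 0.05 in limma (0.0720 to 0.149). YOR338W changed by 0.45 in culture a and -0.58 in culture b, and YDL177C by -0.67 and 0.25. PKH2 had opposite changes, -0.70 in culture a and 0.67 in culture b, and opposite ratios in the cultures at both times (1.51 and -2.19, then 0.82 and -1.52).

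The leading rises and the fall of HPF1 did not rest on 1 array. With each of the 4 arrays, or both arrays of a culture, left out in turn, 14 of the 27 genes stayed past the first rule in all 6 cases: BIO2, BIO3, BIO4, BIO5, VHT1, YJR154W, AAD10, ALD6, OPI3, ITR1, TPO4, WSC4, FUS1 and HPF1. Each case leaves a single array at 1 or both of the times, so that the spread comes from the other times of the 16-array model and the lone array is assumed to vary like them. DDR48 and SED1 passed it in none of the 6 cases, where their adjusted p was 0.0242 to 0.0653 and 0.0134 to 0.0749. The falls varied most, and HPF1 was the only called fall among the 14. Over the 6 cases the change ranged from -0.94 to -0.66 for VID24 and from -1.04 to -0.62 for YAT1. It ranged from -0.93 to -0.75 for MET2 and from -1.17 to -1.03 for NCE103. Without the 150 min array of culture a 20 genes were called lower, against 3 without that of culture b, 4 without the 300 min array of culture a and 2 without that of culture b. Without both arrays of culture a 18 genes were called higher and 10 lower, and without both of culture b 14 higher and 2 lower. Without culture as a term in the model, 13 genes were called higher and 2 lower. ALD6 and ITR1, both among the 14, were then not called. In that model 3 rather than 12 genes of the M/G1 list and 4 rather than 9 of phospholipid synthesis passed the second rule.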

How the data were processed

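RNA of 2 cultures at 150 and 300 min was hybridised with a common reference pool to spotted 70-mer arrays of 2 colours. The authors took mean spot intensities with ImaGene 8.0.1, subtracted no background and normalised each array by print-tip loess, and the submitters' notes name limma 2.12.0. The deposited log2 ratios (sample over reference) were used as given, and the scanner intensities for alternatives and for background and bright-spot checks (a mean above 32768 in either channel). Duplicate spots were averaged. Of 6388 gene probes, 5326 had 1 gene name and 1062 none, and after leaving out 19 mitochondrial and 26 Ty probes and 12 further, dimmer probes of genes with more than 1, 5269 genes were tested. One linear model (limma 3.58.1, R 4.3.3) was fitted to the 16 arrays from 3 to 300 min, with time and culture as terms, 7 residual degrees of freedom and Benjamini-Hochberg adjustment over all 5269 genes. A gene was called at an adjusted p under 0.01 and a fold over 1.7, and members of lists were counted at an adjusted p under 0.05. The 0 min arrays were not used. The cultures pair the arrays, as the labels give a and b at each time. Differences between the cultures at 150 and 300 min correlated at 0.901 across genes, which cannot tell culture from dye. The paper's supplement limits its correction of gene-specific dye bias to the deletion mutant arrays. The text names the 15 largest rises, the called falls and further falls by smallest p up to 15, up to 4 called members of a list described, the 5 genes differing most between cultures, and mating type and strain markers. The 5 other called rises and further list members, SPG4 and CRC1 were named after their values were seen. Members and lists were chosen with earlier results of these data known, and the Ty and probe choices and 4 lists after the values were seen. The code was tested on simulated data. With 2 cultures per time, p-values measure the spread between these cultures after the culture term, pooled over the 8 times. Python 3.11.15 and matplotlib 3.10.9 drew the figures. No sequences were used here.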

Additional observations from a re-analysis of the deposited data

Results flagged for a closer look

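A gene probe with no gene name, SCAB003030, stood outside the genes tested and fell by 1.98 on the log2 scale (SE 0.056, adjusted p = 1.97e-08 in limma). Its log2 ratios were 1.86 and 2.05 at 150 min in cultures a and b, and -0.11 and 0.05 at 300 min. It was the only one of 1062 unnamed probes past the call rule, and the largest change among the bright external control probes was 0.149.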

How the results depend on the processing

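The model of the 16 arrays with culture as a term called 20 genes higher and 7 lower. Without the culture term (no replicate block) 13 and 2 were called and 15 of the 27 calls were kept, while on the 4 arrays alone 22 and 8 were called with the block and 0 and 0 without it (244 genes at an unadjusted p under 0.05). Any fold at an adjusted p under 0.05 gave 371 and 200, and a fold over 1.5 gave 35 and 19. Leaving out each array or a culture gave 14 to 21 higher and 2 to 20 lower, with 15 to 25 of the 27 calls kept. Other normalisation, background, bright-spot, probe and trend settings gave 20 to 24 higher and 7 or 8 lower, and no called gene changed direction in any setting run. Shifted to 6 external control probes, the median change was 0.024, and 156 higher and 49 lower genes passed an adjusted p of 0.05 at any fold. In that setting purine genes lower went from 6 to 1, and without the culture term members of phospholipid synthesis higher went from 9 to 4, of the M/G1 list from 12 to 3, of haploid and pheromone genes from 11 to 6, and of the study's list lower in low glucose mutants from 119 to 23. Leaving out arrays or a culture turned the sign of the median of 4 to 14 of the 69 gene lists, the ribosomal protein, Clb2 and phosphate lists among them, and the shift to control probes that of 7. With 2 cultures per time, smaller differences could not be resolved.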
